A study of Mus musculus with 8 samples.

Results

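The 10 genes described here, of 31053 measured, encode subunits of nicotinic acetylcholine receptors (Chrna2, Chrna4, Chrna5, Chrna7, Chrnb2 and Chrnb4) and proteins that make, carry or break down acetylcholine (Slc5a7, Chat, Slc18a3 and Ache). They were taken by gene symbol, the list itself having been drawn up with earlier results of these data known, and followed through every cell type and library. The data came from single-nuclei RNA-seq (snRNA-seq) of tissue labelled as mouse cortex, with 1 library per mouse. Wt mice, labelled Ifnar1+/+, were compared with mice labelled Ifnar1-/-, a genotype named for loss of Ifnar1, which encodes a subunit of the receptor for type I interferons. Each genotype had 4 mice (females F1 and F2, males M1 and M2), all 6 weeks old, naive and of the strain C57BL6J. The labels name no other allele, transgene or agent in either group.

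Nicotinic receptors are ion channels, built of several subunits, that acetylcholine opens. In cortex the common forms are assembled from Chrna4 and Chrnb2, with Chrna5 as an accessory subunit, or from Chrna7 alone. The transmitter is made from choline by Chat, choline enters the cell through Slc5a7, Slc18a3 (the vesicular acetylcholine transporter) loads it into vesicles, and Ache cleaves it after release. Most cortical acetylcholine is delivered by axons of basal forebrain neurons, whose cell bodies lie outside the cortex, while some cortical Vip interneurons also carry Chat.

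In all 52089 nuclei were kept, of 56780 barcodes deposited, with 44063346 to 58423423 unique molecular identifiers (UMIs, each 1 captured RNA molecule) per library and 3 to 29 barcodes shared by any pair of libraries. The targeted gene, Ifnar1, stood at 16.2 to 19.9 CPM (UMIs of a gene per 1000000 UMIs) in Wt and at 13.9 to 16.9 in Ifnar1-/- over all nuclei, so the ranges overlapped, the UMIs per gene did not separate the genotypes, and Wt and Ifnar1-/- below are the groups as labelled. Nuclei were grouped by clustering with 40 cholinergic genes held out, including the 10 members, and a name such as Vip-like means that the cluster carried markers of that type. Glutamatergic neurons (Glut) comprised 23274 nuclei and GABAergic neurons (GABA) 6584. The latter contained 1999 Pvalb-like, 1635 Sst-like, 846 Vip-like, 769 Lamp5-like and 1335 unnamed nuclei. The marker Vip stood at 7866 CPM in the Vip-like nuclei and at 28.0 or less in the other named subtypes, Sst at 6620 CPM in Sst-like, Pvalb at 87.0 in Pvalb-like and Lamp5 at 276 in Lamp5-like nuclei. Some unnamed GABAergic nuclei also carried Vip or Sst, 1 group of 184 nuclei with Vip at 2194 CPM. Not all of the tissue was cortical by these markers, since 1197 nuclei resembled striatal projection neurons and 53 resembled subcortical cholinergic neurons, with the forebrain cholinergic transcription factors Lhx8 at 159.9 and Isl1 at 174 CPM. A further 8563 nuclei stayed unnamed.

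The members lie on 7 chromosomes of the mouse build mm10, and 3 of them share chromosome 14. Chat (ENSMUSG00000021919) spans chr14:32408203-32465989 on the minus strand. Slc18a3 (ENSMUSG00000100241, chr14:32462438-32464850) lies wholly inside Chat on the same strand. Slc5a7 (ENSMUSG00000023945) spans chr17:54273590-54299034 on the minus strand. Chrna5 (chr9:54980880-55007779) and Chrnb4 (chr9:55028154-55048779) flank Chrna3 in a subunit gene cluster, with gaps of 2331 and 1591 bp. Chrnb2 overlaps Adar on the opposite strand by 7252 bp. The promoter sequences of Chat and Slc5a7 are shown because these genes had their highest levels in the same nuclei, as described below. Each runs from 250 bases before to 50 bases after the RefSeq start on the minus strand (build GRCm38.p6), Chat from chr14:32465860-32466159 and Slc5a7 from chr17:54298985-54299284, with any E-box CACGTG in capitals.
Chat: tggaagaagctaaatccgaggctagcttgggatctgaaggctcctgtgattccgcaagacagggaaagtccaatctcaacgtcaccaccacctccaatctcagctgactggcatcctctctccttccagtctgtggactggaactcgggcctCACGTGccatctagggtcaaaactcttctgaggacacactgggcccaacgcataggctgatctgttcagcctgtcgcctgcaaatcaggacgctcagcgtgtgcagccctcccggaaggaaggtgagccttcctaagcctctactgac
Slc5a7: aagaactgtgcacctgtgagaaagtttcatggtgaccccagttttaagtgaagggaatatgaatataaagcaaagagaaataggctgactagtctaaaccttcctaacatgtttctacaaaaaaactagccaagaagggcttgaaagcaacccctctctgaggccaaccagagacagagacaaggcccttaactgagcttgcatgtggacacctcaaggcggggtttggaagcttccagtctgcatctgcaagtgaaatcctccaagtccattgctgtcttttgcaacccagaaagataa
The Chat window held CACGTG, which reads the same on both strands, starting 98 bases before the start, and the Slc5a7 window held none. RefSeq windows were found for 9 of the 10 members (10 windows, none for Chrna2). CACGTG was in 3 of these 10 windows (Ache, Chrna7 and Chat) and in 7.15% of all 32851 windows of the same length. The core of the interferon-stimulated response element (GAAA, any 2 bases, GAAA), searched on both strands, was in 0 of 10 and in 3.44% of all windows, and the cyclic AMP element TGACGTCA in 0 of 10 and in 1.79%. The GC box GGGCGG was in 6 of 10 windows and in 35.7% of all.

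Of the 10 genes 9 had a UMI in every library. Over all kept nuclei there were 15327 UMIs of Chrna7, 9546 of Ache, 4037 of Chrnb2, 3617 of Chrna4, 1280 of Slc5a7, 938 of Chat, 791 of Chrna5, 179 of Chrna2 and 50 of Chrnb4. Slc18a3 had 0 UMIs in all 8 libraries. Of 417 protein-coding genes that lie wholly inside another gene on the same strand, as Slc18a3 does, 416 (99.8%) had 0 UMIs, against 8.69% of the other 21480. A UMI is counted only where its read belongs to 1 gene, so the 0 of Slc18a3 is no measure of its expression.

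**Figure D1:**
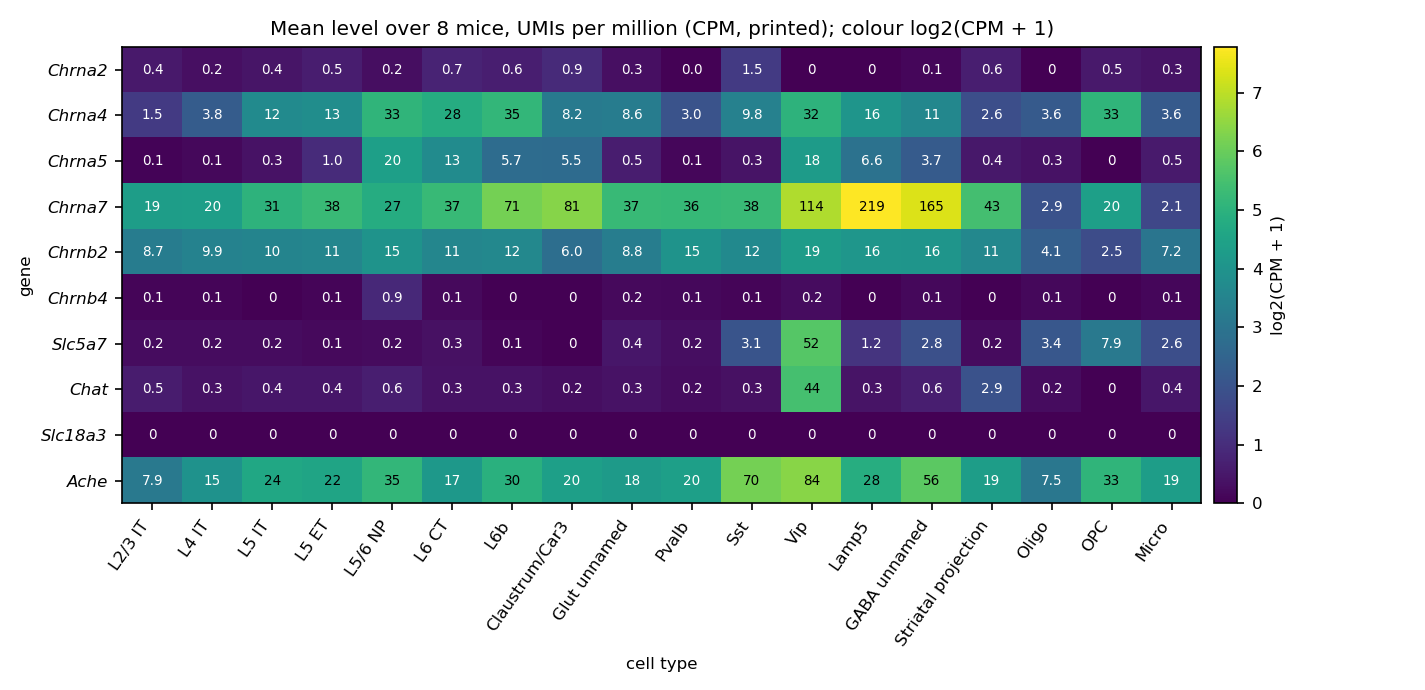
Mean level over 8 mice of each member (rows) in each cell type (columns), printed in CPM and coloured by log2(CPM + 1). Chat and Slc5a7 stand out in the Vip-like column (43.7 and 51.9 CPM), Chrna7 in Lamp5-like and Chrna5 in L5/6 NP, Vip-like and L6 CT.

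The genes for making acetylcholine were concentrated in the Vip-like nuclei among the cortical types. Chat, the enzyme that joins choline to its acetyl group, was at 51.0, 34.8, 49.6 and 52.6 CPM in Vip-like nuclei of Wt F1, F2, M1 and M2. It was at 47.9, 34.5, 51.3 and 28.1 CPM in those of Ifnar1-/- F1, F2, M1 and M2. The mean was 43.7 CPM (SD 9.62, n = 8), and the lowest mouse lay above the highest value of each of the other 17 types ordered (the subcortical cholinergic nuclei, too few per library, are given below), the next being striatal projection neurons at 2.92 CPM (0 to 9.45). Sst-like, Lamp5-like and Pvalb-like nuclei were at 0.283, 0.325 and 0.204 CPM. Slc5a7, the high-affinity choline transporter, followed the same order at the top. In Vip-like nuclei it was at 36.4, 42.1, 53.2 and 75.6 CPM in Wt and at 61.6, 49.2, 57.7 and 39.1 CPM in Ifnar1-/- (mean 51.9, SD 13.1, n = 8). The next type was oligodendrocyte precursors at 7.87 CPM (0 to 13.7), followed by oligodendrocytes at 3.36 and Sst-like nuclei at 3.09, whose ranges overlapped. The Vip-like nuclei, 1.62% of those kept, held 20.4% of all Chat and 17.7% of all Slc5a7 UMIs.

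Within the Vip-like nuclei both genes were detected in a minority. Chat had a UMI in 114 of 846 nuclei (13.5%, Wilson 95% interval 11.3 to 15.9, counting error only), and in 8.85% to 18.3% by library, at a median depth of 4822 UMIs per nucleus. In Pvalb-like nuclei, at a greater median depth of 7891 UMIs, the share was 0.20%, and in oligodendrocytes (2079 UMIs) 0.0411%. With every nucleus thinned to 1000 UMIs the share in Vip-like nuclei was 3.90% for Chat and 5.08% for Slc5a7. Slc5a7 had a UMI in 159 Vip-like nuclei (18.8%), against 0.20% of Pvalb-like nuclei, and 43 nuclei had both. Of the nuclei with Chat, 37.7% also had Slc5a7, against 15.8% of those without. Nuclei with more UMIs detect more of any gene, and the part of depth in this difference was not tested. There were 1.18 Slc5a7 UMIs per Chat UMI in Vip-like nuclei, 1.40 in subcortical cholinergic nuclei, 9.75 in Sst-like nuclei and 18.7 in oligodendrocytes. The ratios of Sst-like nuclei and oligodendrocytes rest on only 4 and 3 Chat UMIs.

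The 53 subcortical cholinergic nuclei, 2 to 12 per library and clustered without these genes, had Chat in 52 (98.1%, 90.1 to 99.7) and Slc5a7 in 52, at a median depth of 10974 UMIs. Pooled over libraries they were at 536 CPM for Chat, 752 for Slc5a7 and 227 for Ache. They made up 0.102% of nuclei and held 36.5% of Chat and 37.5% of Slc5a7 UMIs. Levels over all nuclei therefore depend on how many of these nuclei a library held.

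The 846 Vip-like nuclei fell into 2 sub-clusters with unlike profiles, described here with no test because they were set apart after values were seen. In sub-cluster 3 (532 nuclei, median 4910 UMIs) Chat was at 57.8 CPM pooled over libraries (41.4 to 75.2 by library) and Slc5a7 at 71.2 (43.7 to 94.3). In sub-cluster 19 (314 nuclei, median 4747 UMIs) Chat was at 19.5 CPM (0 to 60.2) and Slc5a7 at 18.2 (7.62 to 28.1). The ranges of Slc5a7 did not overlap while those of Chat did. The subunit Chrna4 was at 41.6 CPM (26.7 to 60.6) in sub-cluster 3 and 14.5 (0 to 50.7) in sub-cluster 19. Chrna5 was at 12.3 CPM (0 to 27.0) and 28.9 (5.63 to 61.0), so the ranges of both subunits overlapped. Vip was also carried by unnamed sub-clusters 10 (184 nuclei, 2194 CPM) and 24 (16 nuclei, 2016 CPM). Chat was at 0.642 and 0 CPM there and Slc5a7 at 6.42 and 0. Outside the Vip-like nuclei Slc5a7 had another high point, in Sst-like sub-cluster 23. These 76 nuclei carried the markers Chodl (276 CPM) and Npy (10573 CPM) of long-range Sst neurons. Slc5a7 was at 56.8 CPM there and had a UMI in 21 nuclei (27.6%) from all 8 libraries. Chat had 1 UMI in the same nuclei, 1.62 CPM.

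**Figure D2:**
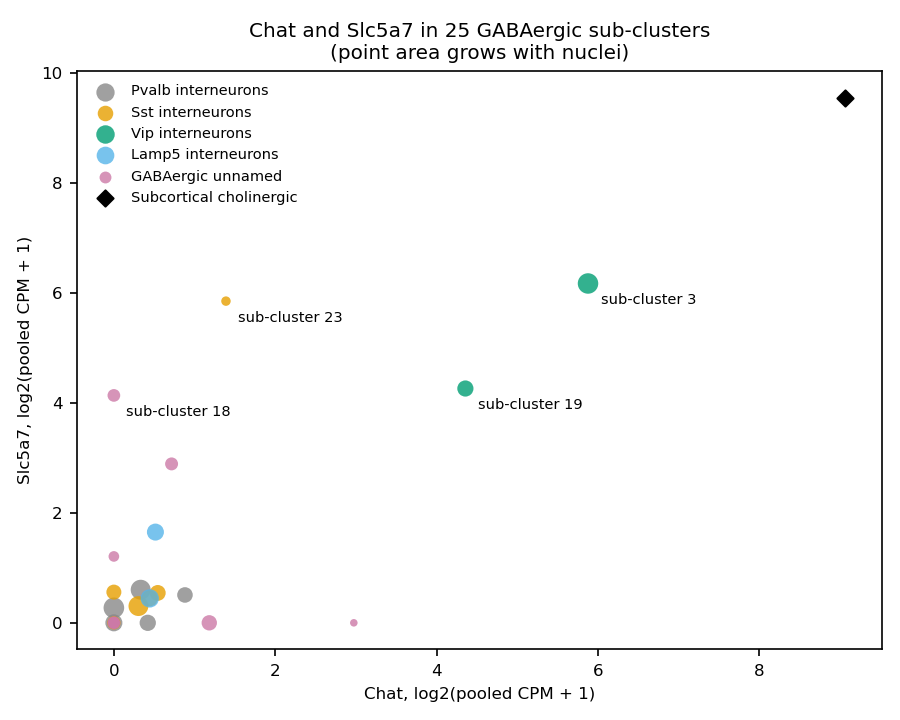
Chat (x axis) against Slc5a7 (y axis), both log2(CPM + 1) pooled over libraries, in 25 GABAergic sub-clusters coloured by type and in the subcortical cholinergic nuclei. Vip-like sub-clusters 3 and 19 are high for both genes, while Sst-like sub-cluster 23 is high for Slc5a7 (56.8 CPM) with 1.62 CPM of Chat.

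Ache, the enzyme that ends the signal, was spread over more types. Its level was 83.5 CPM (SD 23.2) in Vip-like nuclei, with the mice between 50 and 129.8 CPM and a median of 79.5. Sst-like nuclei were next at 70.5 CPM (48.0 to 112, median 64.6), lower in 7 of 8 mice with overlapping ranges. The lowest named neurons were L2/3 IT at 7.90 CPM, below L4 IT at 14.8 in 8 of 8 mice with no overlap.

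Among the receptor subunits, Chrna7, which forms channels on its own, was highest in Lamp5-like nuclei. Its levels there were 221, 166, 249 and 201 CPM in Wt F1, F2, M1 and M2. In Ifnar1-/- they were 170.5, 202, 238 and 301 CPM. The mean was 219 CPM (SD 44.3, n = 8), followed by 165 in the unnamed GABAergic nuclei (132 to 214) and 114 in Vip-like nuclei (94.5 to 169). Lamp5-like nuclei exceeded the unnamed ones in 7 of 8 mice, with overlapping ranges. Sst-like and Pvalb-like nuclei were at 37.8 and 36.3 CPM, and oligodendrocytes and microglia at 2.91 and 2.14. A UMI was found in 64.0% of Lamp5-like nuclei (median 6157 UMIs) and in 0.342% of microglia (1472 UMIs), or 19.6% and 0.251% after thinning to 1000 UMIs. Sub-clusters differed widely within a subtype. The 178 nuclei of unnamed sub-cluster 12, with Reln at 1915 and Cnr1 at 691 CPM, were at 686 CPM of Chrna7 (469.7 to 898 by library), with a UMI in 84.3%. Pvalb-like sub-clusters ran from 6.08 CPM in sub-cluster 5 to 64.0 in sub-cluster 6, and Sst-like sub-cluster 8 was at 93.0. Sub-cluster 6 had at least 10 nuclei in only 5 libraries (44.4 to 87.1 CPM) and sub-cluster 5 in 8 (0 to 12.4). These sub-clusters were therefore not drawn evenly from the libraries.

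Chrna4 and Chrna5, whose products join in the same channels, both had L5/6 NP and Vip-like nuclei among their 4 highest types. Chrna4 was at 34.8 CPM in L6b (23.3 to 43.7, median 35.1), 32.9 in oligodendrocyte precursors, 32.8 in L5/6 NP and 31.8 in Vip-like nuclei (18.3 to 42.8, median 33.3), with overlapping ranges. L6 CT followed at 27.5 CPM and exceeded the next type, Lamp5-like at 15.8, in 8 of 8 mice. Pvalb-like nuclei were at 2.98 and L2/3 IT at 1.51 CPM. Chrna5 was at 20.1 CPM in L5/6 NP (7.07 to 36.0, median 19.3), 18.1 in Vip-like nuclei (4.56 to 36.8, median 17.2) and 12.6 in L6 CT (7.57 to 21.5, median 10.5), and these ranges overlapped. Of the other deep types, L6b was at 5.72 CPM (3.75 to 8.37) and the claustrum and Car3 nuclei at 5.54 (0 to 12.7). L5 ET and L5 IT were lower, at 0.962 and 0.301 CPM. Chrna5 was at 0.321 CPM in Sst-like, 0.0976 in Pvalb-like and 0.0602 in L2/3 IT nuclei, where 2 to 4 UMIs were counted in all. The L6 CT nuclei, 5.96% of those kept, held 41.2% of all Chrna5 and 19.7% of all Chrna4 UMIs.

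Chrnb2, the partner of Chrna4, showed no gap between types. It was at 18.6 CPM in Vip-like nuclei (5.50 to 29.5), 15.9 in Lamp5-like, 15.1 in both L5/6 NP and Pvalb-like and 11.9 in Sst-like nuclei. Every type overlapped its neighbour in the order, down to oligodendrocytes at 4.13 CPM and their precursors at 2.52. Because Adar overlaps this gene on the other strand, reads can be told apart only where strand was used in counting.

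Chrna2, a marker of a group of deep Sst neurons, was at 1.5 CPM in Sst-like nuclei (0 to 3.01), from 20 UMIs. Next were claustrum and Car3 nuclei at 0.896 CPM, from 3 UMIs, lower in 5 of 8 mice. L6 CT followed at 0.712, from 18 UMIs, and these ranges overlapped. Of the 179 UMIs 51.4% were in Glut, 31.8% in unnamed nuclei outside the cell types and 11.2% in Sst-like nuclei. It had 0 UMIs in 846 Vip-like and 769 Lamp5-like nuclei, which allows up to 0.689 and 0.588 CPM (3 UMIs, counting error only). Within Sst-like nuclei 16 of the 20 UMIs were in sub-cluster 8, at 7.33 CPM, in 15 of 299 nuclei (5.02%) from 7 of 8 libraries. Chrnb4 was at 0.881 CPM in L5/6 NP, from 4 UMIs, and at 0.20 CPM or less in every other type.

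**Figure D3:**
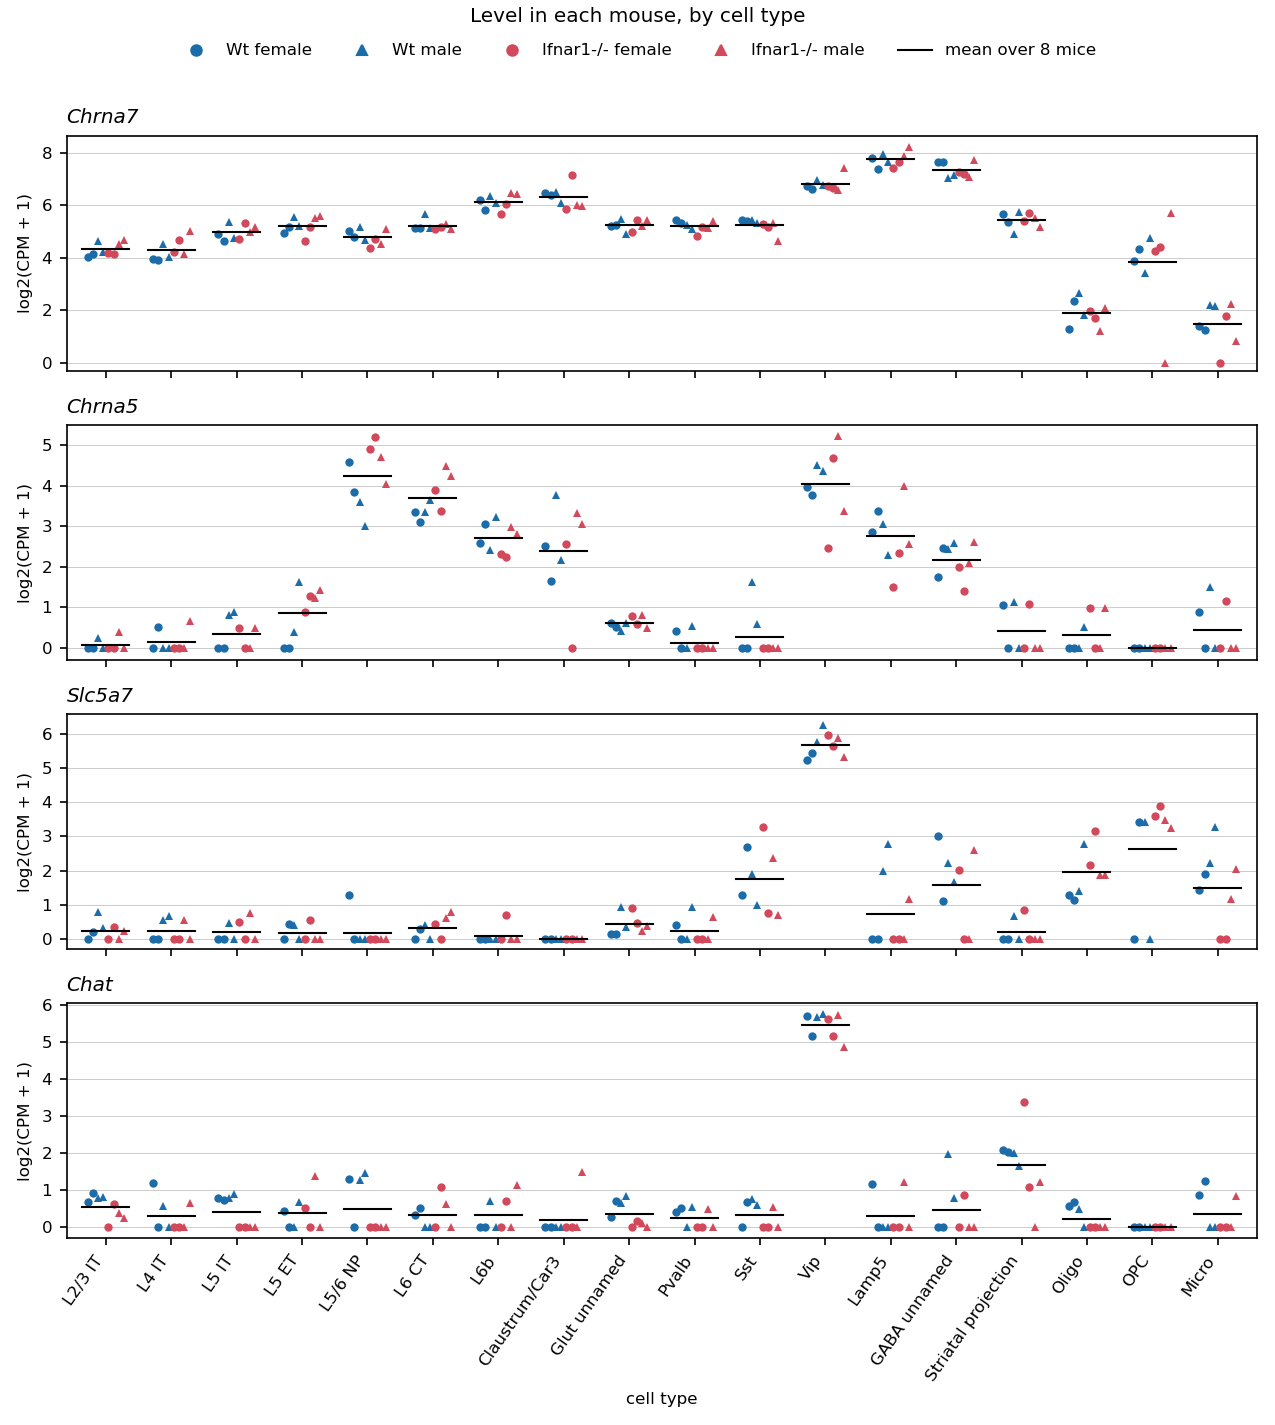
Level of Chrna7, Chrna5, Slc5a7 and Chat, log2(CPM + 1), in each of 8 mice (points: blue Wt, red Ifnar1-/-, circles female, triangles male) by cell type, with the mean of the 8 log2 values as a line. For Chat and Slc5a7 the 8 mice of the Vip-like column (28.1 to 52.6 and 36.4 to 75.6 CPM) lie above every other type shown.

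The classes of the same mouse were then compared for every gene by an exact sign-flip permutation test (two-sided, n = 8 mice) of the difference in log2(CPM + 1), a scale that understates changes of low genes. The smallest p it can give is 0.00781. Between GABA and Glut nuclei 5 of 9 members tested were higher in GABA and 0 lower, each in 8 of 8 mice at an adjusted p of 0.0173 (exact test). Slc5a7 was higher by 2.50 (SD 0.32, 5.65-fold), Chat by 1.90 (SD 0.29), Ache by 1.37 (SD 0.14), Chrna7 by 1.33 (SD 0.20) and Chrnb2 by 0.55 (SD 0.15). Of all 23095 genes tested 34.0% were higher and 20.3% lower, so the members' share is read against a wide difference between the classes. The members' median difference was 0.55 and that of all genes 0.06. Chrna4 (-0.21, adjusted p = 0.132, exact test), Chrna5 (0.12), Chrna2 (0.03) and Chrnb4 (-0.00) did not pass.

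Vip-like nuclei had the most members above the other subtypes. Against the mean of Pvalb-like, Sst-like and Lamp5-like nuclei 6 of 8 members tested were higher and 0 lower, each in 8 of 8 mice (adjusted p = 0.0439, exact test). These were Chat by 5.16 (SD 0.29, 35.8-fold), Slc5a7 by 4.78 (SD 0.33, 27.4-fold), Chrna5 by 3.0 (SD 0.67), Chrna4 by 1.93 (SD 0.69), Ache by 1.26 (SD 0.35) and Chrna7 by 0.74 (SD 0.27). Chrnb2 differed by 0.27 (SD 0.73, adjusted p = 0.528, exact test). Of 19019 genes 7.30% were higher and 10.5% lower in Vip-like nuclei, and the median was 1.60 over the members and -0.13 over all genes. These 6 calls ended with nuclei thinned to 1000 UMIs and with no filter on low counts, where 0 members passed.

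Pvalb-like nuclei were compared with a mean that includes the Vip-like nuclei. In Pvalb-like nuclei 6 of 8 members were lower and 0 higher (adjusted p = 0.0297, exact test). Slc5a7 was at -2.48 (SD 0.56), Chrna5 at -2.24 (SD 0.61), Chrna4 at -2.22 (SD 0.46), Chat at -1.78 (SD 0.24), Chrna7 at -1.40 (SD 0.16) and Ache at -1.38 (SD 0.34). Slc5a7 and Chrna5 had 4 and 2 UMIs in Pvalb-like nuclei, so the sizes of their differences rest on the levels of the other subtypes. Across all genes 13.8% were lower and 18.3% higher, and the median was -1.59 over members and 0.05 over all genes. Each subtype is compared with the mean of the other 3, so these comparisons are not independent of each other. Chat was at 0.204, 0.283 and 0.325 CPM in Pvalb-like, Sst-like and Lamp5-like nuclei, from 4, 4 and 2 UMIs. In Vip-like nuclei it was at 43.7 CPM. The lower calls of Chat in the former subtypes, here and below, therefore restate its level in Vip-like nuclei.

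Sst-like nuclei had Ache higher (0.93, SD 0.26) and Chrna5 (-2.03, SD 0.68), Chat (-1.68, SD 0.42) and Chrna7 (-1.34, SD 0.43) lower, 1 and 3 of 8 members (adjusted p = 0.0455, exact test). All genes were higher in 9.87% and lower in 7.30%, with medians of -0.44 over members and 0.04 over all. Chrna2 was at 1.19 (higher in 7 of 8 mice, adjusted p = 0.0712, exact test). Lamp5-like nuclei had Chrna7 (1.99, SD 0.25, 3.98-fold) and Chrna5 (1.27, SD 0.66) higher and Chat lower (-1.71, SD 0.52), 2 and 1 of 8 members (adjusted p = 0.0437, exact test). Here 9.97% of genes were higher and 7.90% lower, with medians of -0.16 over members and 0.00 over all. The adjusted p of every subtype call lay close under 0.05, and 0 members passed in any subtype comparison without any 1 mouse, when 7 mice allow no p under 0.0156 and no call could be made. The calls in Sst-like and Lamp5-like nuclei also ended with thinning and with no filter on low counts, and those in Pvalb-like nuclei with thinning. By limma on the same differences, an alternative chosen after the data were seen, 5, 7, 5, 7 and 6 members passed in the GABA, Pvalb-like, Sst-like, Vip-like and Lamp5-like comparisons. Without any 1 mouse limma called 5 to 6, 6 to 7, 5 to 6, 7 to 8 and 6 to 7 members. On all 8 mice the same rule called 59.1%, 35.5%, 20.9%, 22.8% and 22.5% of all genes in either direction.

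**Figure D4:**
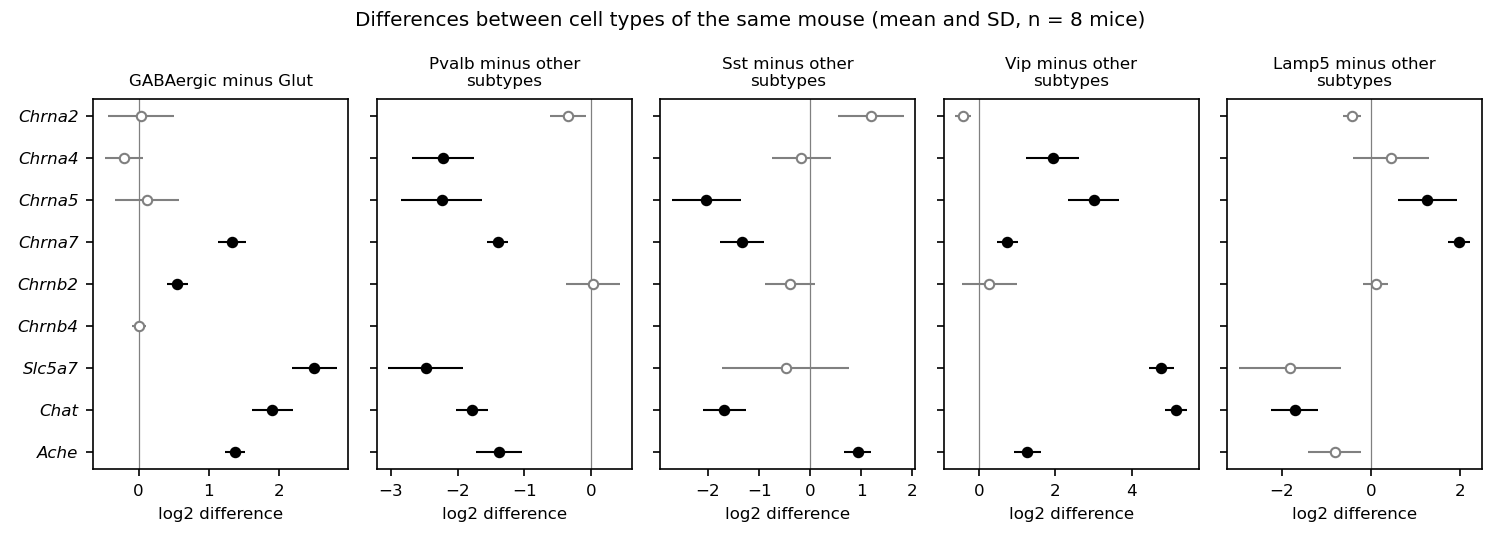
Difference in log2(CPM + 1) between types of the same mouse for each member (points: mean, bars: SD over 8 mice), in 5 comparisons. Filled points passed the exact sign-flip test after Benjamini-Hochberg adjustment, and 6 members lie right of 0 in Vip-like and 6 left of 0 in Pvalb-like nuclei.

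The other genes of the pathway were read from lists of receptors, modulators and enzymes. Of 15 nicotinic subunit genes tested 3 were higher in GABA than in Glut (Chrna7, Chrnb2 and the muscle-type subunit Chrnb1) and 1, Chrnb3, was lower, with a list median of 0.03. Of 4 muscarinic receptors, the G protein-coupled acetylcholine receptors, Chrm2 was higher (0.41) and Chrm1 (-1.30) and Chrm3 (-0.32) were lower. Of 8 chaperones and Ly6-type modulators, small proteins that bind nicotinic receptors or help to assemble them, 6 were higher and 2 lower, among them Lypd6 (2.96, SD 0.30), Lypd6b (2.22, SD 0.17) and Lypd1 (-1.61, SD 0.50). Of 10 genes for synthesis, transport and breakdown 6 were higher, including butyrylcholinesterase Bche (1.10) and the Ache membrane anchor Prima1 (0.55), and 2 lower. The calls in these lists are set against the same 34.0% and 20.3% of all genes.

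Between subtypes the same modulators had unlike values in Sst-like and Vip-like nuclei. Lypd6 was higher in Sst-like nuclei by 4.22 (SD 0.88, 18.6-fold) and Lypd6b by 3.46 (SD 0.58), with 6 of 8 genes of the list higher and 0 lower (9.87% and 7.30% of all genes). In Vip-like nuclei Lypd6 (-2.79, SD 1.33) and Lypd6b (-1.36, SD 0.64) were lower and Lypd1 was higher (2.83, SD 0.35, 7.13-fold). In Lamp5-like nuclei 4 of the 8 were lower and 0 higher (7.90% and 9.97% of all genes), including Lynx1 (-1.45), which was higher in Pvalb-like nuclei (1.06). Of 3 muscarinic receptors tested Chrm2 was higher in Pvalb-like (2.56) and Sst-like (2.52) and lower in Vip-like (-2.29) and Lamp5-like nuclei (-2.79). Chrm3 was higher in Sst-like (1.72) and Vip-like nuclei (1.40). Bche was higher in Vip-like (2.23) and Sst-like nuclei (1.79).

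As a description of likeness, Pearson's r of log2(CPM + 1) was taken over 21 cell types that share the same libraries, against 17769 genes with at least 200 UMIs. The genes most like Chat were Gm15592 (0.91), Slc10a4, a vesicular transporter of cholinergic neurons (0.87), and Slc5a7 (0.84). Those most like Slc5a7 were Slc10a4 (0.90), Ufsp1 (0.87) and Tshr (0.85). Chrna7 was closest to 3110039M20Rik (0.87), 2810049E08Rik (0.86) and Aak1 (0.85), Chrna4 to Celsr2 (0.85), Slc7a3 (0.76) and Aph1b (0.75), and Chrna5 to A630010A05Rik (0.82), Cidea (0.78) and Gm37896 (0.71). For Chrnb2, r was 0.91 with Thoc1 and 0.87 with Opn5, and Ache was closest to Ace (0.88), Inafm1 (0.87) and Gatsl2 (0.86). Between members r was 0.68 for Chrna4 with Chrna5 and 0.07 for Chrna4 with its partner Chrnb2.

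Wt and Ifnar1-/- mice were set against each other by edgeR's quasi-likelihood test on UMIs summed per mouse and type, with p-values adjusted by Benjamini-Hochberg over all genes of a type. In Glut 0 of 7 members tested passed (0.0553% of all 18081 genes did), and in GABA 0 of 7 (0.0274%). The counts were 0 of 7 in Vip-like (0.0133%), 0 of 3 in Lamp5-like (0.0498%), 0 of 4 in Sst-like (0.0181%) and 0 of 3 in Pvalb-like nuclei (0.0344%). They were 0 of 1 in oligodendrocytes (0.071%), 0 of 1 in microglia (0.0945%) and 0 of 8 over all nuclei (0.0501%). DESeq2 also called 0 members in each. In astrocytes and oligodendrocyte precursors 0 members had enough UMIs for the test. The median log2 fold change of the members was -0.05 in Glut, 0.02 in GABA and 0.13 in Vip-like nuclei, against 0.00 to 0.01 over all genes.

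For the genes of acetylcholine synthesis the comparison in Vip-like nuclei is the one with the highest levels. Slc5a7 had a log2 fold change of -0.00 (standard error 0.20) and Chat of -0.21 (standard error 0.25), from 106 UMIs in Wt and 85 in Ifnar1-/-. Chrna7 was at 0.13 (0.19) and Chrna4 at 0.50 (0.29) in the same nuclei, and Chrna7 at 0.14 (0.17) in Lamp5-like nuclei. In Glut, Chrna4 was at -0.05 (0.16), Chrna7 at 0.07 (0.14) and Chrnb2 at 0.27 (0.13).

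An unadjusted p under 0.05 was seen for 2 members in Glut and 1 in Vip-like nuclei, with an adjusted p of 1 in each (edgeR), while 320 and 169 of all genes had one. In Glut Chrna5 was at 2.25, 1.91, 2.01 and 2.67 CPM in Wt and 2.90, 2.45, 3.85 and 3.02 in Ifnar1-/-. The fitted log2 difference was 0.48 (standard error 0.18, unadjusted p = 0.0257, adjusted p = 1, edgeR). The groups overlapped by 1 mouse on either side. In the 2 Glut types where it was highest no test was run, and it was at 9.32, 7.57, 9.30 and 11.5 CPM in Wt and 14.0, 9.47, 21.5 and 18.1 in Ifnar1-/- in L6 CT. The groups overlapped in L6 CT. In L5/6 NP the mean of 4 mice was 13.7 CPM for Wt (SD 6.76) and 26.4 CPM for Ifnar1-/- (SD 8.49). L6 CT and L5/6 NP held 326 and 95 of the 589 Chrna5 UMIs of Glut. Their values are therefore part of the Glut difference and not independent of it. Where Chrna5 was tested outside Glut, the fitted log2 difference was -0.02 (standard error 0.38) in GABA and 0.15 (0.48) in Vip-like nuclei. Over all nuclei it was 0.37 (0.21). Chat in Glut was at 0.477, 0.508, 0.495 and 0.574 CPM in Wt and 0.0408, 0.312, 0.321 and 0.182 in Ifnar1-/-, from 58 and 24 UMIs. The fitted log2 difference was -1.21 (standard error 0.42, unadjusted p = 0.0176, adjusted p = 1, edgeR). The ranges of these groups did not overlap, but the share of all genes without overlap was not counted, so no weight is placed on it. Chat had a UMI in 0.331% of Glut nuclei at a median of 8777 UMIs, 0.245% of Sst-like at 7748 and 0.260% of Lamp5-like nuclei at 6157, and the part of free RNA in these low counts was not tested. In Vip-like nuclei Chrnb2 was at 12.8, 5.50, 14.7 and 19.7 CPM in Wt and 25.1, 29.5, 22.4 and 18.8 in Ifnar1-/-, with overlap through 1 mouse of each genotype. Its fitted log2 difference was 0.82 (standard error 0.36, unadjusted p = 0.0392, adjusted p = 1, edgeR).

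**Figure D5:**
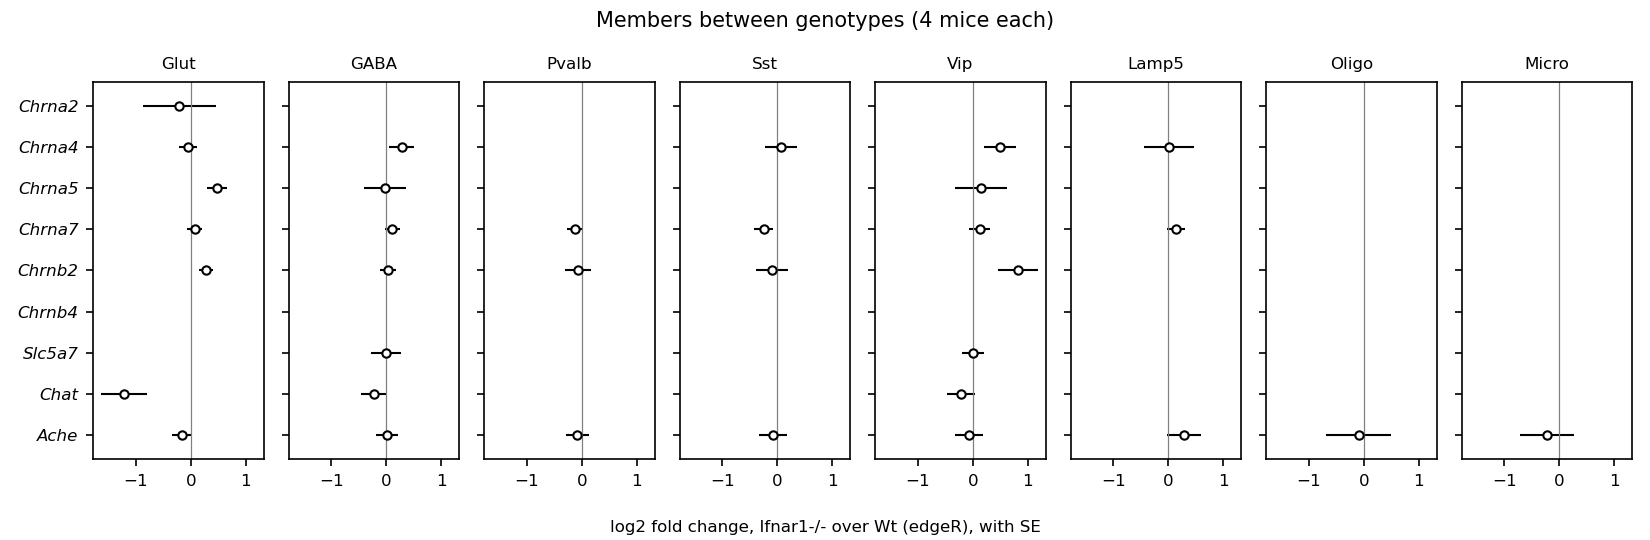
Log2 fold change of each member between Ifnar1-/- and Wt (points, bars: standard error, 4 mice each, edgeR) in 8 cell types; a member without a point had too few UMIs for the test. None passed the adjusted threshold, and Chat in Glut (-1.21) and Chrnb2 in Vip-like nuclei (0.82) lie farthest from 0.

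The sexes were compared with genotype in the model. In Glut 1 of 7 members passed, Chrna2, at 0.613 CPM in the 4 females and 0.227 in the 4 males (log2 fold change -1.44, standard error 0.47, adjusted p = 0.0409, edgeR). This difference rested on few UMIs and on the mice used, since it passed without Ifnar1-/- F2 or M2 but not without Ifnar1-/- F1 or M1 or Wt M1 or M2, and without Wt F1 or F2 it had too few UMIs for the test. In all, 30.3% of genes passed in Glut, and whatever else the mice of one sex shared cannot be told apart from sex. In GABA 0 of 7 members passed (25.8% of all genes did), and Chrna5 was at 0.71 (standard error 0.30, unadjusted p = 0.0367, adjusted p = 0.102, edgeR). A genotype difference that depended on sex was tested in 41 pairs of a member and a type, with a lowest adjusted p of 0.996 (edgeR, lowest unadjusted p = 0.0336).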

How the data were processed

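Cortical nuclei of 4 Wt and 4 Ifnar1-/- mice were profiled by snRNA-seq with the 10x Single Cell 3' v3 chemistry. Reads were assigned to mm10 genes by the authors in Cell Ranger, unspliced transcripts included, and they deposited raw UMI counts per gene and barcode, which are not normalized. They used Seurat 3.1.5 for their own later steps, whose cell labels were not used here.

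From these counts, nuclei with 200 to 6000 genes, at least 1000 UMIs and at most 10% mitochondrial UMIs were kept (54341), and 2252 doublets called by Scrublet (within scanpy 1.11.5) were removed. The rest were clustered (3000 variable genes, 40 principal components, 15 neighbours, Leiden resolution 1, leidenalg 0.10.2) without 40 cholinergic genes and named by marker lists. UMIs were summed per mouse and type. Levels are CPM without other scaling, and genes with fewer than 10 UMIs were left out of the level tests. Genotypes were compared in edgeR 4.0.16 (TMM, filterByExpr, glmQLFit and glmQLFTest, genotype alone), with DESeq2 1.42.0 as an alternative, and types by the exact sign-flip test, with limma 3.58.1 as an alternative chosen after the data were seen. Libraries with fewer than 10 nuclei of a type were left out, so astrocytes had 3 mice of each genotype. Scripts were tested on simulated data.

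The genes named were all 10 members, the 3 genes most like each member with at least 200 UMIs (1 of them is not reported here), and the listed pathway genes that passed a test. Sub-clusters and other genes singled out were chosen after their values were seen. The members and lists were chosen with earlier results of these data known. The labels say only that replicate numbers carry sex. Same-numbered mice deviated together from the genotype means (r = 0.51, 0.65, 0.69 and 0.51 for F1, F2, M1 and M2). From the mean of each genotype and sex r was -0.22 to -0.12, and 2 of 8 libraries correlated best with their own number, so beyond sex no pairing was seen. Gene positions are from GENCODE vM21 (mm10) and promoters from RefSeq (GRCm38.p6). Software was Python 3.11.15 and R 4.3.3.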

Additional observations from a re-analysis of the deposited data

Results flagged for a closer look

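Of 42 groups of 4 mice examined, 3 held 1 mouse far from the other 3 (a gap, as a share of the group's range, above Dixon's 95% critical value), and chance gives about 1 in 20. Chrna4 in Glut was at 16.5 CPM in Wt M2 and at 10.4 to 11.2 in the other Wt mice (gap 0.865 of the range). Chrna7 in Glut was at 41.8 CPM in Wt M1 and at 30.8 to 31.5 in the others (0.936). Chrna7 in GABA was at 118 CPM in Ifnar1-/- M2 and at 81.4 to 82.4 in the other Ifnar1-/- mice (0.974). What set these mice apart was not tested.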

How the results depend on the processing

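The 5 members that differed between GABA and Glut passed under every alternative (another pseudocount, thinning, no filter on low counts, a higher resolution, limma and without each mouse). In the subtypes fewer calls held. With nuclei thinned to 1000 UMIs 0 members, and 0 of all genes, passed in each of the 4 subtypes. With no filter on low counts, which adds genes to the adjustment, 0 passed in Sst-like, Vip-like and Lamp5-like nuclei and 6 in Pvalb-like nuclei. Without 1 mouse 0 to 0 passed in each, where the smallest p of 7 mice (0.0156) could not pass the adjustment, so this says nothing about stability. By limma 6 passed in Lamp5-like nuclei, against 3. Of 24 single differences 19 lost their call with thinning and 13 with no filter on low counts, and 0 changed direction under any alternative. Between the sexes 0 to 1 members passed in Glut without 1 mouse.

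Between genotypes 0 members passed under every alternative, including sex as a covariate and the replicate block, which changed no call in any type. Directions reversed in 11 of 260 values. DESeq2 gave 0.00 for Slc5a7 in Vip-like nuclei. Without 1 mouse, the log2 fold change ranged as follows. For Chrna4 in Glut it was -0.10 to 0.11 (highest without Wt M2). For Chrna7 it was -0.03 to 0.18 in GABA, -0.11 to 0.25 in Vip-like and -0.02 to 0.23 in Lamp5-like nuclei, each lowest without Ifnar1-/- M2. For Slc5a7 in Vip-like nuclei it was -0.13 to 0.23, with 0.01 without Ifnar1-/- F2 and 0.13 without Ifnar1-/- M2. For Ache it was -0.40 to 0.12 in Vip-like and -0.25 to 0.19 in Sst-like nuclei, the latter with 0.06 without Ifnar1-/- M2. The mean of Chrna4 in L6b was 27.6 CPM after thinning, against 34.8. Few UMIs limit Chrna2, Chrnb4 and every member in astrocytes and oligodendrocyte precursors.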

Other observations

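Of the Chat UMIs 29.3% and of the Slc5a7 UMIs 27.7% were in unnamed nuclei outside the cell types above, where 81 of 8563 nuclei had 275 Chat UMIs and 1.29 Slc5a7 UMIs per Chat UMI. In striatal projection neurons 23 of 1197 nuclei (1.92%) had Chat, with 0.080 Slc5a7 UMIs per Chat UMI, from 2 and 25 UMIs. In oligodendrocyte precursors 11 of 453 nuclei (2.43%) had Slc5a7 and 0 had Chat, which allows a share of up to 0.841% (Wilson 95% limit) of nuclei with a Chat UMI at their median depth of 2349 UMIs, not of nuclei that express it. In Vip-like sub-cluster 19, Wt F1 held 11 of the 31 Chat UMIs.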
